A study of Mus musculus with 6 samples.

Results

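The genes described here are the semaphorins, their plexin receptors and the neuropilin coreceptors, taken from the count table by symbol. The rule found 31 of the 26264 genes in the table, 20 semaphorin ligands and 11 receptors, of which 9 are plexins and 2 are neuropilins. The rule itself used names alone, but it was chosen with earlier results of these data known. RNA was sequenced in bulk from cultures of adult mouse spinal cord neural stem cells, and 3 libraries of GFP-positive cells were set against 3 libraries of GFP-negative cells.

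All libraries came from mice on the strain background labelled C57BL6J that carry the transgene PDGFRaGFP, in which a green fluorescent protein reports Pdgfra, the platelet-derived growth factor receptor of oligodendrocyte precursor cells. The GFP-positive libraries are labelled PDGFRaGFP/+ and the GFP-negative ones PDGFRaGFP/-. These stand as genotype in the labels, which do not say whether they mean a difference between mice or only the sorted fraction, so genotype and fraction cannot be told apart. Both fractions grew in medium with EGF and FGF2 and were separated by fluorescence-activated cell sorting. The labels give no age in days, and do not say whether animals were pooled, or whether the title numbers 314, 315 and 316 (replicates 1, 2 and 3 here) stand for animals, cultures or sorts, so the tests rest on the variation among these libraries, which could be purely technical.

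Semaphorins are secreted or membrane-bound guidance proteins that share a Sema domain and act mostly by repelling or attracting growing axons and migrating cells. Plexins are their signalling receptors, with a cytoplasmic domain that acts on small GTPases, and the secreted class 3 members usually need a neuropilin that binds the ligand beside a plexin of the A group. In the oligodendrocyte lineage this system is known for steering the migration of precursors, with Sema3a as a repellent, and several members are known to affect precursor differentiation and remyelination.

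Libraries held 31067850 to 45207335 counts. Pdgfra checked the labels, at 237, 205 and 245 CPM (read counts scaled to the size of each library) in the GFP-positive and 8.04, 19.3 and 13.9 CPM in the GFP-negative libraries. Markers of oligodendrocyte precursors were called higher in GFP-positive cells in 8 of 8 genes, with a summed level of 4155 to 4382 against 2262 to 2551 CPM. Astrocyte markers were called lower in 9 of 9, at 505 to 618 against 3733 to 4620 CPM, and none of them was at 0 in every library. The neural stem cell markers Nes, Sox2, Vim, Fabp7, Msi1 and Hes5 had counts in every library, and 5 of the 6 were called lower in GFP-positive cells, with a summed level of 1721 to 1939 against 5472 to 6192 CPM. Of 8 endothelial markers, 8 stood under 1 CPM in every library, with Cldn5 and Ly6c1 at 0, and summed to 0.736 to 1.35 CPM in the GFP-positive fraction against 0.778 to 1.64 CPM in the GFP-negative one. Of 9 microglial markers, 8 stood under 1 CPM in every library, with C1qa and C1qb at 0. Ependymal markers summed to 4.55 to 6.12 against 11.1 to 16.7 CPM. Among these 7 markers, 6 stood under 1 CPM in every library, with Tmem212, Pifo and Deup1 at 0. The ependymal sum was mostly Foxj1, at 4.92 ± 0.83 against 13.3 ± 2.78 CPM (SD, n = 3). Markers of myelinating oligodendrocytes summed to 27.8 to 42.0 against 18.8 to 20.6 CPM, and those of Schwann cells to 31.5 to 43.4 against 36.3 to 44.8 CPM. Those under 1 CPM in every library numbered 5 of 8 for myelinating oligodendrocytes and 2 of 6 for Schwann cells. In bulk RNA, fewer cells of a type and less RNA per cell cannot be told apart.

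A gene was called when its adjusted p in edgeR's quasi-likelihood test over all tested genes was below 0.05. Of the 31 genes, 30 passed the filter on low counts, and Sema3g did not. Among those 30, 15 were called higher and 10 lower in GFP-positive cells. Over all 14554 tested genes, 55.4% were called, with 26.1% higher and 29.2% lower, so calls were common in this contrast. The ligands gave 10 higher, 6 lower and 3 not called of 19 tested, with a median log2 fold change of 0.82, and the receptors gave 5 higher, 4 lower and 2 not called of 11, with a median of 0.31. Lower receptors numbered 2 when GFP-positive replicate 1 or GFP-positive replicate 3 was left out. The median over all tested genes was -0.0058. Called changes of more than 1 on the log2 scale were seen in 13 of the 19 tested ligands and 2 of the 11 receptors, against 18.3% of all genes. The groups did not overlap in 27 of the 30 tested members, 16 with the GFP-positive libraries above and 11 with them below, against 64.2% of all genes (31.3% above and 33.0% below).

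**Figure D1:**
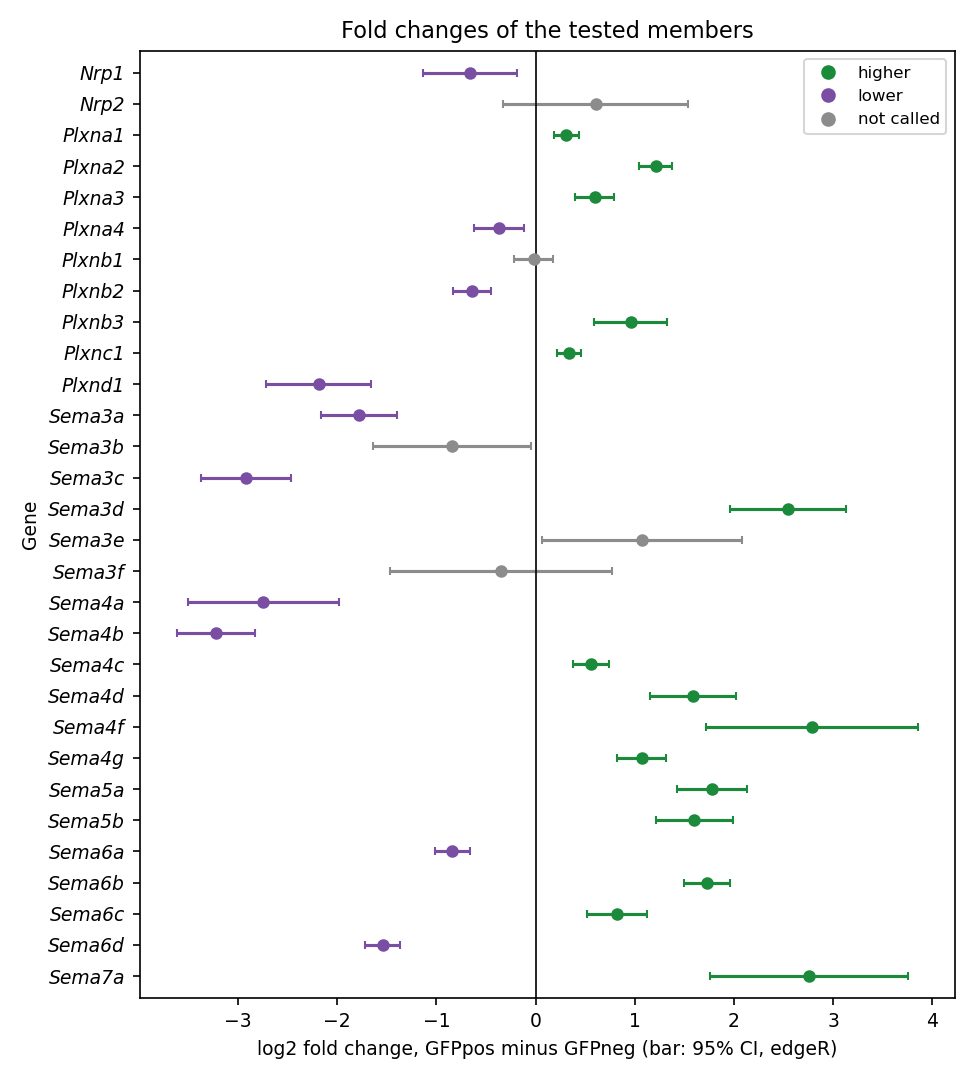
Log2 fold change (GFP-positive minus GFP-negative, x axis) of the 30 tested members (y axis); points are edgeR estimates from 3 libraries per group, bars are 95% confidence intervals, green is called higher, purple called lower and grey not called. Values run from -3.23 for Sema4b to 2.79 for Sema4f, and the receptors lie closer to 0 than most ligands, with Plxnd1 at -2.19.

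Promoter sequence was available from RefSeq (GRCm38.p6) for 26 of the 31 genes, in 37 start sites; Plxna1, Plxna4, Sema3b, Sema3f and Sema6a were not matched. The 250 bases before the start are shown for the called members with a single listed start and the largest differences, 2 higher (Sema4f and Sema7a) and 2 lower (Sema3c and Plxnd1), so that the regulatory sequence of genes that moved apart can be read side by side. The windows are chr6:82939770-82940019 on the minus strand for Sema4f, chr9:57939862-57940111 on the plus strand for Sema7a, chr5:17574566-17574815 on the plus strand for Sema3c and chr6:115995006-115995255 on the minus strand for Plxnd1. Each reads 5′ to 3′ along its gene and ends at the base before the start, and capitals mark matches, on either strand, to an E-box (CAGCTG), a SOX motif (ACAAAG) or a GC box (GGGCGG).
Sema4f: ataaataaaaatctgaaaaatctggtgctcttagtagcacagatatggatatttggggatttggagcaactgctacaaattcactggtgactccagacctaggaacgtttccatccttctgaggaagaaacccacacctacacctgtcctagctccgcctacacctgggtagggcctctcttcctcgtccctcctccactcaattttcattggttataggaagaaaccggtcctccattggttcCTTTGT
Sema7a: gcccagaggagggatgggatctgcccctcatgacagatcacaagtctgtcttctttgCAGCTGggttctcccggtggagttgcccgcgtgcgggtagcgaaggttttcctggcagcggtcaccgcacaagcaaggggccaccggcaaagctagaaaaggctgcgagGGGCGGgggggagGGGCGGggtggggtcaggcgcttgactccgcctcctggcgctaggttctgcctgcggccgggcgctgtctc
Sema3c: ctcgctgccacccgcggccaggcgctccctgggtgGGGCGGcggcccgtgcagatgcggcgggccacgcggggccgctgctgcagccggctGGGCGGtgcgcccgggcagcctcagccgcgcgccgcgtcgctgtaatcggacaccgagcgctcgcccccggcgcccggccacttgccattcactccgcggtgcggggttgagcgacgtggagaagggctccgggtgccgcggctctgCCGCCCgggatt
Plxnd1: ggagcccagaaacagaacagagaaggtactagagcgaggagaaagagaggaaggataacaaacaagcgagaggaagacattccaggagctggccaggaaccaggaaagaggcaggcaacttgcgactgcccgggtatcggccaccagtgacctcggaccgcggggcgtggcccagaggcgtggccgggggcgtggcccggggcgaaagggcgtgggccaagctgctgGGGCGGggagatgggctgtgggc

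The Sema4f window had a GC content of 46.0% and held the SOX letters at its end, and the Sema3c window had a GC content of 78.4% with 3 GC box matches. Sema7a had an E-box and 2 GC box matches, and Plxnd1 had 1 GC box match. Over the 37 windows of these genes, 27 (73.0%) held the GC box, 6 (16.2%) the E-box and 5 (13.5%) the SOX motif. Over the 32851 windows of equal length for all listed starts the shares were 32.7%, 13.0% and 16.5%. The 5 windows with the SOX letters belonged to Sema3d and Sema4f, called higher, Sema3a and 1 of the starts of Sema6d, called lower, and Plxnb3, called higher. A match is a description of letters and not of a bound site.

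Of the secreted class 3 semaphorins, 7 were in the table. Among the 6 tested, 1 was called higher, 2 were called lower and 3 were not called. The called share of 50% was near the 55.4% of all tested genes. Sema3a (Entrez 20346), the collapsin-type repellent that acts through Nrp1 and plexins of the A group, stood at 57.4, 47.5 and 58.5 CPM in the GFP-positive fraction against 234, 146 and 181 CPM in the GFP-negative one of replicates 1, 2 and 3. Each GFP-positive library lay below each GFP-negative one. The difference was -1.78 on the log2 scale (edgeR, SE 0.17, adjusted p = 6.49e-05), from 187 ± 44.4 to 54.4 ± 6.07 CPM (SD, n = 3).

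Sema3c (Entrez 20348), a ligand known as an attractant that can bind both neuropilins, was at 0.981, 1.39 and 1.39 CPM in the GFP-positive fraction against 11.1, 8.70 and 8.75 CPM in the GFP-negative one. The groups were well apart, with a log2 fold change of -2.92 (edgeR, SE 0.20, adjusted p = 1.36e-05). Sema3d (Entrez 108151), a secreted member known from axon and cardiovascular guidance, went the other way, at 9.62, 14.2 and 9.68 against 2.31, 2.14 and 1.30 CPM. The lowest GFP-positive library was thus several times the highest GFP-negative one, and the log2 fold change was 2.54 (edgeR, SE 0.25, adjusted p = 8.85e-05).

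The remaining class 3 members were scarce. Sema3e, which binds Plxnd1 without a neuropilin, had 24, 37 and 29 counts in the GFP-positive and 11, 18 and 5 counts in the GFP-negative libraries. Its groups did not overlap once scaled, and its log2 fold change of 1.07 (95% interval 0.07 to 2.08) missed the threshold (edgeR adjusted p = 0.0672). It passed without GFP-negative replicate 2 (adjusted p = 0.0174) and without replicate 2 (0.0339), and in limma voom (0.0469). Sema3b and Sema3f, ligands linked mainly to Nrp2, were at most 1.15 CPM in any library and had intervals of -1.64 to -0.04 and -1.47 to 0.77, with adjusted p of 0.0698 and 0.570 in edgeR. Sema3g had 2 to 5 counts in each library and was not tested. Sema3d, Sema3a, Sema3e and Sema3c lie in this order on chromosome 5 in the RefSeq table. Of the called ones, Sema3d was higher and Sema3a and Sema3c were lower, while Sema3e between the latter was not called.

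**Figure D2:**
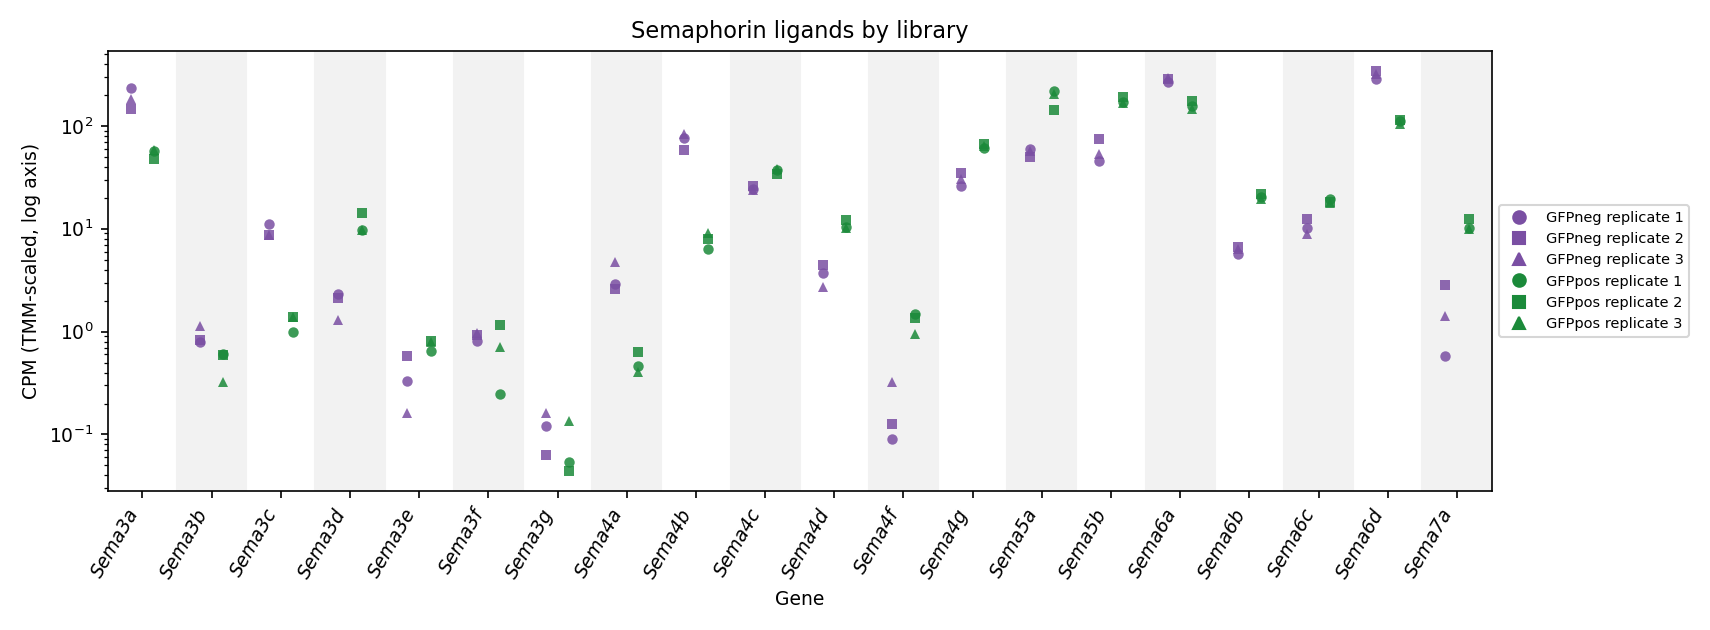
Level of each of the 20 semaphorins (x axis) in CPM on a log axis (y axis), with 1 point per library; purple is GFP-negative, green is GFP-positive and the marker shape gives the replicate. Sema3a, Sema3c, Sema4a, Sema4b, Sema6a and Sema6d sit lower in the green points, while Sema7a, Sema4f, Sema3d and both class 5 genes sit higher.

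Class 4 semaphorins are membrane proteins, and all 6 in the table were called, 4 higher and 2 lower, against 55.4% called of all tested genes. Sema4b (Entrez 20352), a transmembrane member with an intracellular tail that binds postsynaptic scaffolds, had the largest decrease of the family. It stood at 6.37, 7.93 and 9.11 CPM in the GFP-positive fraction against 76.1, 58.7 and 84.3 CPM in the GFP-negative one. Every GFP-positive library was far below the GFP-negative range, and the fold change was 9.35-fold lower, or -3.23 on the log2 scale (edgeR, SE 0.17, adjusted p = 4.80e-06).

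Sema4a (Entrez 20351), known for roles in immune cells and the retina, was at 0.463, 0.640 and 0.408 CPM in the GFP-positive fraction against 2.88, 2.61 and 4.80 CPM in the GFP-negative one. These levels were low, but the groups did not overlap (log2 fold change -2.75, SE 0.33, edgeR adjusted p = 2.29e-04). Both lower class 4 genes shared their direction with the summed astrocyte and neural stem cell markers given above. The ependymal sum, mostly Foxj1, had this direction too. The part of cell makeup in this was not tested.

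Sema4d (Entrez 20354), the ligand of Plxnb1 that is made by oligodendrocytes, was at 10.3, 12.1 and 10.3 CPM in the GFP-positive fraction against 3.73, 4.43 and 2.69 CPM in the GFP-negative one. The GFP-positive libraries lay close together above the others, and the log2 fold change was 1.59 (edgeR, SE 0.19, adjusted p = 2.09e-04). Sema4g was at 61.6, 67.4 and 63.3 against 25.9, 35.2 and 30.3 CPM, without overlap (log2 fold change 1.07, SE 0.11). Sema4c, a ligand of Plxnb2, changed less, from 24.7 ± 1.20 to 36.4 ± 2.30 CPM (SD, n = 3), which is a log2 fold change of 0.56 (edgeR, SE 0.08, adjusted p = 4.92e-04).

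Sema4f (Entrez 20355), whose promoter is printed above, was a low-count gene with 54, 61 and 35 counts in the GFP-positive fraction against 3, 4 and 10 in the GFP-negative one. Scaled for depth these were 1.47, 1.35 and 0.952 against 0.0910, 0.127 and 0.324 CPM. The groups were apart in every library, with a log2 fold change of 2.79 and a wide interval of 1.72 to 3.85 (edgeR adjusted p = 0.00129).

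Class 5 semaphorins, membrane proteins with thrombospondin repeats, were both higher in GFP-positive cells, as were 26.1% of all tested genes. Sema5a (Entrez 20356), which binds Plxna1 and Plxna3 and is known as a cue of the oligodendrocyte lineage in the optic nerve, was at 219, 144 and 206 CPM in the GFP-positive fraction against 59.4, 49.8 and 56.6 CPM in the GFP-negative one. Replicate 2 was the lowest of the GFP-positive libraries and still more than any GFP-negative one. The log2 fold change was 1.78 (edgeR, SE 0.15, adjusted p = 4.30e-05).

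Sema5b (Entrez 20357), its close relative, stood at 170, 190 and 168 CPM against 45.2, 75.4 and 53.3 CPM. Replicate 2 was here the highest in both fractions, and the groups did not overlap. Its log2 fold change was 1.60 (edgeR, SE 0.17, adjusted p = 1.15e-04), an increase from 57.9 ± 15.6 to 176 ± 12.4 CPM (SD, n = 3).

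The 4 class 6 semaphorins, transmembrane proteins that bind plexins of the A group and can also signal backwards into the cell that carries them, divided evenly. They gave 2 higher and 2 lower, where 55.4% of all tested genes were called. Sema6d (Entrez 214968), a ligand of Plxna1, was at 111, 113 and 103 CPM in the GFP-positive fraction against 288, 343 and 321 CPM in the GFP-negative one. Spread within each fraction was small beside the gap, and the log2 fold change was -1.54 (edgeR, SE 0.08, adjusted p = 3.82e-06). Sema6a (Entrez 20358), a ligand of Plxna2 and Plxna4, was also lower, at 158, 174 and 144 against 269, 288 and 295 CPM (log2 fold change -0.84, SE 0.08, edgeR adjusted p = 5.83e-05).

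Sema6b (Entrez 20359), a further ligand of the A group, moved in the opposite direction, at 20.2, 21.9 and 19.7 CPM in the GFP-positive fraction against 5.64, 6.60 and 6.42 CPM in the GFP-negative one. That is a log2 fold change of 1.73 (edgeR, SE 0.10, adjusted p = 7.74e-06) with no overlap. Sema6c was higher too, at 18.6 ± 0.95 against 10.5 ± 1.85 CPM (SD, n = 3), with a log2 fold change of 0.82 (edgeR, SE 0.13, adjusted p = 0.00103).

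Sema7a (Entrez 20361), the member held in the membrane by a lipid anchor, binds integrins with a beta-1 chain and Plxnc1. It was at 10.1, 12.6 and 10.0 CPM in the GFP-positive fraction against 0.576, 2.84 and 1.43 CPM in the GFP-negative one. All GFP-positive libraries stood above the GFP-negative ones, among which replicate 2 was highest and replicate 1 lowest. Pdgfra had the same order in the GFP-negative libraries, and the part of GFP-positive cells left in that fraction was not tested. The log2 fold change was 2.76 (edgeR, SE 0.43, adjusted p = 9.56e-04), and between libraries of equal number the log2 ratio was 3.92, 2.11 and 2.73 in replicates 1, 2 and 3 (0.1 CPM added).

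Plexins of the A group, the signalling partners of neuropilins and of class 6 ligands, were called in 4 of 4 genes, 3 higher and 1 lower. The share over all tested genes was 55.4%. Plxna2 (Entrez 18845), the receptor of Sema6a, was at 246, 242 and 232 CPM in the GFP-positive fraction against 96.6, 115 and 99.6 CPM in the GFP-negative one. Its GFP-positive values were tightly grouped at more than the whole GFP-negative range, with a log2 fold change of 1.21 (edgeR, SE 0.07, adjusted p = 7.84e-06). Plxna3 was higher by a log2 fold change of 0.60 (SE 0.08), at 95.7, 104 and 101 against 60.4, 74.7 and 63.3 CPM. Plxna1, a shared receptor of class 3, 5 and 6 ligands, went from 174 ± 5.68 CPM in GFP-negative to 216 ± 10.3 CPM in GFP-positive libraries (SD, n = 3), higher by 0.31 on the log2 scale (edgeR, SE 0.06, adjusted p = 0.00191). In the GENCODE M21 annotation, 10.7% of the exon length of Plxna1 is overlapped by a transcript on the opposite strand, whose reads could be mixed in where counting ignores strand.

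Plxna4 (Entrez 243743), the A-group plexin that mediates Sema3a and Sema6a signals, was lower, at 49.6, 53.4 and 47.0 against 61.2, 75.8 and 56.3 CPM. The groups were separate by a narrow gap (log2 fold change -0.37, SE 0.11, edgeR adjusted p = 0.0222). Its call was lost without GFP-positive replicate 1 (adjusted p = 0.0775), without GFP-positive replicate 3 (0.0834) and without replicate 1 (0.107).

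**Figure D3:**
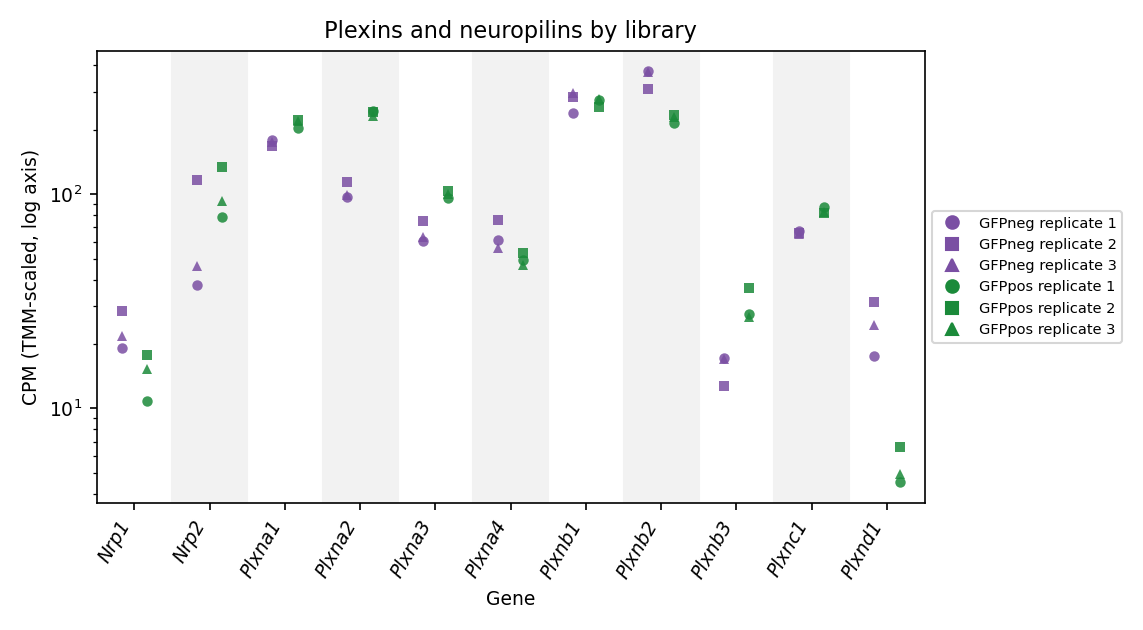
Level of the 9 plexins and 2 neuropilins (x axis) in CPM on a log axis (y axis), with 1 point per library; purple is GFP-negative, green is GFP-positive and the marker shape gives the replicate. Plxna2 is set apart upward and Plxnd1 downward, Plxnb1 overlaps, and Nrp2 is high in replicate 2 (squares) of both fractions.

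Plexins of the B group, receptors of class 4 ligands, gave 1 higher, 1 lower and 1 not called. With 66.7% called, they were near the 55.4% of all tested genes. Plxnb2 (Entrez 140570), a receptor of Sema4c, was at 215, 233 and 229 CPM in the GFP-positive fraction against 375, 309 and 371 CPM in the GFP-negative one. The fractions did not overlap, and the log2 fold change was -0.64 (edgeR, SE 0.08, adjusted p = 3.33e-04). Plxnb3 (Entrez 140571), a plexin known to be expressed in oligodendrocytes and to bind Sema5a, was higher, at 27.7, 36.7 and 26.7 against 17.1, 12.7 and 17.0 CPM (log2 fold change 0.96, SE 0.16, edgeR adjusted p = 0.00130).

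Plxnb1 (Entrez 235611), the receptor of Sema4d, was at 275, 256 and 278 CPM in the GFP-positive fraction against 239, 284 and 297 CPM in the GFP-negative one. The values of the fractions were interleaved. Its log2 fold change of -0.02 had a 95% interval of -0.22 to 0.18, so that a change in either direction of up to that size fits these libraries (edgeR adjusted p = 0.856).

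Plxnc1 (Entrez 54712), the receptor of Sema7a, was modestly higher, at 87.3, 81.5 and 82.7 against 67.5, 66.1 and 65.5 CPM. All GFP-positive libraries were above the GFP-negative ones (log2 fold change 0.34, SE 0.05, edgeR adjusted p = 9.59e-04). Plxnd1 (Entrez 67784), the receptor of Sema3e best known from blood vessels, had the largest change of any receptor, at 4.52, 6.60 and 4.95 CPM in the GFP-positive fraction against 17.6, 31.3 and 24.5 CPM in the GFP-negative one. Its groups lay far apart, with a log2 fold change of -2.19 (edgeR, SE 0.23, adjusted p = 1.14e-04). The 8 endothelial markers stood under 1 CPM in every library of either fraction. Of further receptors known from blood vessels, Flt1 was called lower, at 0.136, 0.11 and 0.408 against 1.79, 1.59 and 7.78 CPM. Kdr overlapped between the fractions and was not called, at 1.77, 0.684 and 1.03 against 0.789, 0.382 and 1.49 CPM. The part of vascular cells in the Plxnd1 values was not tested.

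The neuropilins, coreceptors that also bind vascular endothelial growth factors, varied more among libraries than most plexins. Nrp1 (Entrez 18186) was at 10.8, 17.8 and 15.3 CPM in the GFP-positive fraction against 19.1, 28.6 and 21.8 CPM in the GFP-negative one. The highest GFP-positive library was just under the lowest GFP-negative one, and the log2 fold change was -0.66 (edgeR, SE 0.21, adjusted p = 0.0252). This call was lost without GFP-negative replicate 2 (adjusted p = 0.0519), GFP-positive replicate 1 (0.0736), GFP-positive replicate 3 (0.0572) or replicate 3 (0.1).

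Nrp2 (Entrez 18187) was at 77.9, 134 and 93.2 CPM in the GFP-positive fraction against 37.7, 117 and 46.1 CPM in the GFP-negative one. Replicate 2 was the highest in both fractions, and the groups overlapped because its GFP-negative library exceeded the GFP-positive libraries of replicates 1 and 3. The log2 fold change of 0.61 (95% interval -0.33 to 1.54) was not called (edgeR adjusted p = 0.236). With the replicate number as a block it was 0.74 (edgeR adjusted p = 0.00334), and the log2 ratios within numbers were 1.04, 0.20 and 1.01 for replicates 1, 2 and 3. Without GFP-negative replicate 2 the log2 fold change was 1.29 (adjusted p = 6.37e-04), and without replicate 2 it was 1.04 (1.28e-04). Leaving out GFP-negative replicate 1 gave 0.32 (adjusted p = 0.519), leaving out GFP-negative replicate 3 gave 0.41 (0.486) and leaving out GFP-positive replicate 2 gave 0.36 (0.53). The summed fibroblast and mural markers also varied between numbers, mostly through Col3a1. Of the 9 markers, 7 stood under 1 CPM in every library and none was at 0 in all. Their sum was 0.409 to 9.38 CPM in the GFP-positive fraction against 2.67 to 104 CPM in the GFP-negative one. Most of the highest sums were Col3a1, at 102 and 9.18 CPM in the GFP-negative and GFP-positive libraries of replicate 2. Col1a1 did not peak there, at 1.00, 0.765 and 1.30 CPM in GFP-negative replicates 1, 2 and 3. In the GFP-positive fraction it was at 0.327, 0.0662 and 0 CPM. The part of cells with these markers in the Nrp2 values was not tested.

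Levels of different genes were compared per kilobase of exon. In GFP-negative cells the most abundant ligands were Sema6d at 44.2 ± 3.91, Sema6a at 39.8 ± 1.93 and Sema3a at 30.0 ± 7.13 CPM per kb (SD, n = 3), followed by Sema4b at 18.1 ± 3.24 and Sema5b at 12.5 ± 3.36 CPM per kb. Sema6d and Sema6a did not differ by more than the sum of their SDs, nor did Sema4b and Sema5b. Within each GFP-negative library, though, Sema6d stood above Sema6a. In GFP-positive cells Sema5b led with 37.9 ± 2.68 CPM per kb, and Sema6a at 22.3 ± 2.09, Sema5a at 17.5 ± 3.71, Sema6d at 15.2 ± 0.74 and Sema4g at 14.1 ± 0.66 CPM per kb came next (SD, n = 3). Of these, Sema5a did not differ from Sema6a, Sema6d or Sema4g by more than the sum of their SDs, nor did Sema6d from Sema4g. Within each GFP-positive library, though, Sema6a stood above Sema5a and Sema6d above Sema4g.

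**Figure D4:**
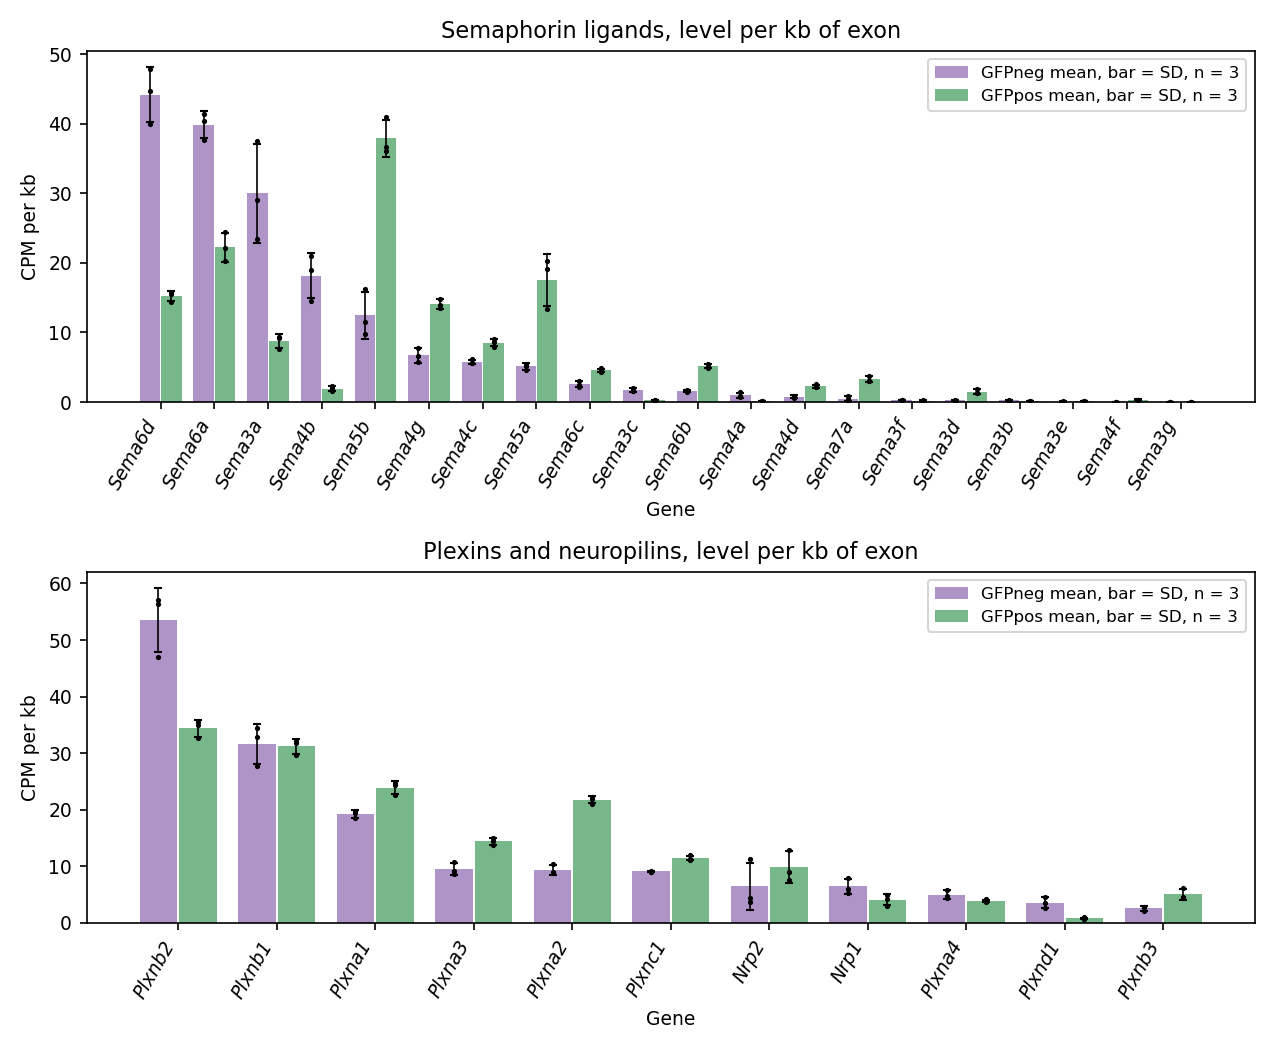
Level of every ligand (top) and receptor (bottom) in CPM per kilobase of exon (y axis), ordered by the GFP-negative mean; bars are means, error bars SD and dots the 3 libraries of each group. Sema6d and Sema6a lead the GFP-negative ligands and Sema5b the GFP-positive ones, while Plxnb2 leads the receptors in both.

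As a share of the summed ligand level per kilobase, Sema5b held 26.3 ± 1.48% in the GFP-positive fraction against 7.28 ± 1.97% in the GFP-negative one, and Sema5a 12.2 ± 2.70% and 2.99 ± 0.27% (SD, n = 3). The corresponding shares were 10.5 ± 0.32% and 25.8 ± 2.19% for Sema6d, 6.07 ± 0.77% and 17.5 ± 4.29% for Sema3a, and 1.35 ± 0.25% and 10.6 ± 1.82% for Sema4b. Among receptors, Plxnb2 held the largest share in both, at 21.4 ± 0.33% and 34.3 ± 4.46%, and Plxna2 held 13.6 ± 0.73% and 5.99 ± 0.42% (SD, n = 3).

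Summed over all 20 ligands, the level was 894, 863 and 863 CPM in the GFP-positive fraction against 1060, 1064 and 1083 CPM in the GFP-negative one. The groups did not overlap, and the exact permutation test (two-sided) gave p = 0.1, the smallest that 3 libraries against 3 can reach. The receptor sum was 1293, 1389 and 1331 against 1170, 1281 and 1238 CPM, also with an exact permutation p of 0.1. Taken per kilobase, the receptor sums overlapped (161 ± 6.10 against 156 ± 5.37 CPM per kb, SD, n = 3, exact permutation p = 0.5).

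Further genes of semaphorin signalling were read from a list of coreceptors, other neuropilin ligands and cytoplasmic effectors. Of 55 such genes with a row of counts, 48 were tested, and 14 (29.2%) were called higher and 20 (41.7%) lower, against 26.1% and 29.2% of all tested genes, with a median log2 fold change of -0.13. Among 10 tested coreceptors and alternative receptors, 1 (10%) was higher and 8 (80%) were lower, beside the same 26.1% and 29.2%. Chl1, an adhesion molecule that pairs with Nrp1 in the response to Sema3a, was at 99.7, 100.2 and 76.1 CPM in the GFP-positive fraction against 376, 384 and 354 CPM in the GFP-negative one, without overlap (log2 fold change -2.01, SE 0.11, edgeR adjusted p = 4.95e-06). Its relative L1cam was the higher member, at 2.83 ± 0.60 against 1.02 ± 0.41 CPM (SD, n = 3), with a log2 fold change of 1.46.

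Erbb2, a receptor kinase that associates with plexins of the B group, was at 0.572, 0.817 and 1.31 CPM in the GFP-positive fraction against 13.0, 10.8 and 17.3 CPM in the GFP-negative one. The groups were widely separate (log2 fold change -3.93, SE 0.30, edgeR adjusted p = 2.39e-05). Itga1, a partner of the beta-1 integrin that binds Sema7a, had a log2 fold change of -2.51, and Flt1, a receptor of vascular endothelial growth factors, one of -4.10 with a wide interval of -5.95 to -2.25. Flt1 stood at 7.78 CPM in GFP-negative replicate 3 and at 1.79 and 1.59 CPM in replicates 1 and 2 of that fraction. Of the neuropilin ligands of the VEGF family, 4 were tested, with 0 higher and 2 (50%) lower, against 26.1% and 29.2% of all tested genes. Pgf had a log2 fold change of -3.22 and Vegfb one of -0.32, whose call was lost without replicate 3 (adjusted p = 0.0932).

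Of the 34 cytoplasmic effectors, all tested, 13 (38.2%) were called higher and 10 (29.4%) lower, where all tested genes gave 26.1% and 29.2%. The collapsin response mediator proteins, which bind tubulin and carry the Sema3a signal to the cytoskeleton, were listed as 5 genes. Dpysl3 was at 1478, 1525 and 1501 CPM in the GFP-positive fraction against 473, 424 and 399 CPM in the GFP-negative one, without overlap (log2 fold change 1.80, SE 0.07, edgeR adjusted p = 2.16e-06). Dpysl5, Crmp1 and Dpysl4 were higher as well, with log2 fold changes of 1.72, 1.69 and 1.48. Of 8 neuron markers, 2 were called higher and 0 lower (Snap25 at 1.71 and Rbfox3 at 1.88 on the log2 scale), 4 stood under 1 CPM in every library and Slc17a6 was at 0. Their summed level was 25.1 to 31.1 CPM in the GFP-positive fraction against 9.49 to 15.01 CPM, and their part in the differences of these genes was not tested. Dpysl2, the founding member for Sema3a signalling and named after its values were seen, was at 436 ± 6.42 against 398 ± 36.9 CPM (SD, n = 3) and was not called (95% interval -0.03 to 0.30, edgeR adjusted p = 0.145).

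**Figure D5:**
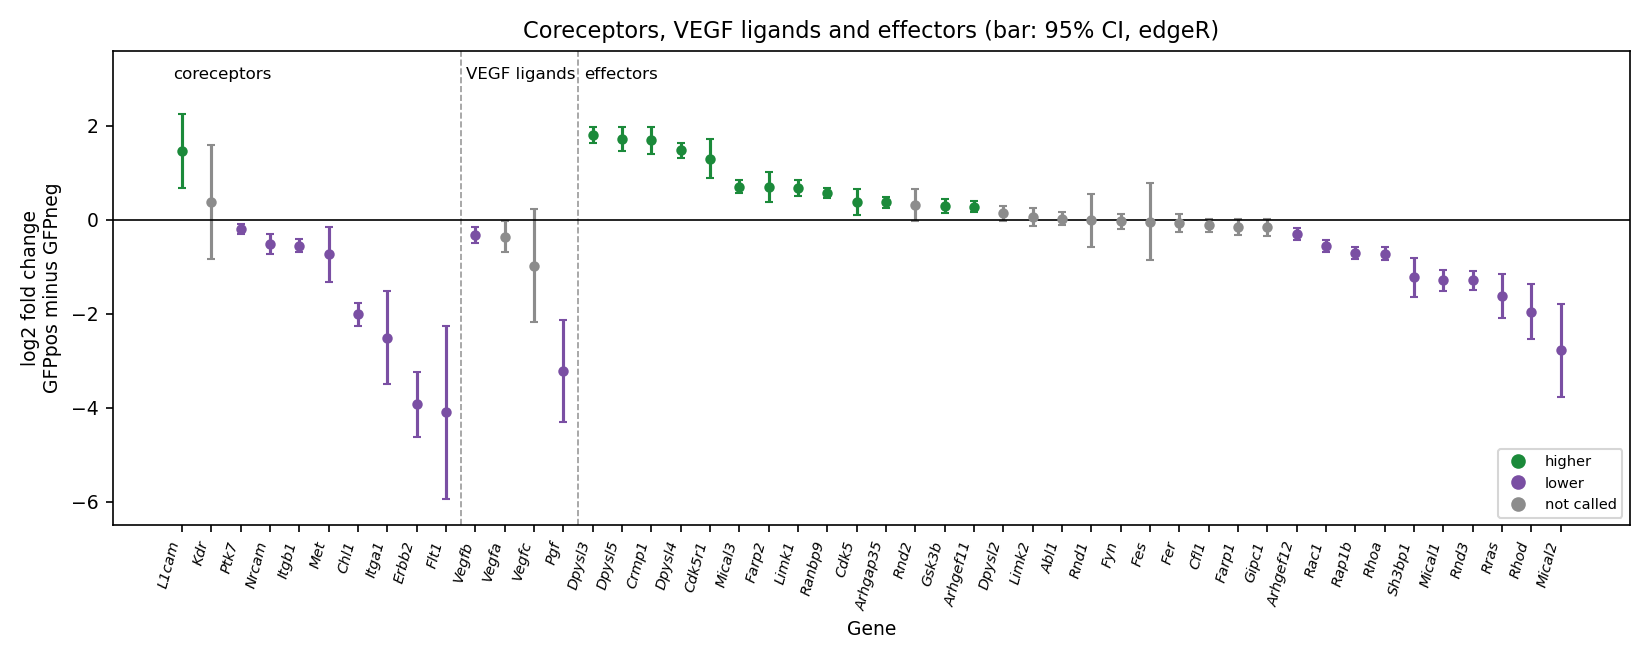
Log2 fold change (GFP-positive minus GFP-negative, y axis) of the 48 tested coreceptors, VEGF-family ligands and effectors (x axis); points are edgeR estimates from 3 libraries per group, bars are 95% confidence intervals, green is called higher, purple called lower and grey not called. Coreceptors lie mostly below 0 and effectors on both sides, from 1.80 for Dpysl3 to -2.78 for Mical2.

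Among the effectors called lower, Mical2, an actin-oxidising enzyme of the family that couples to plexins, was at 3.02, 2.30 and 3.10 CPM in the GFP-positive fraction against 24.9, 7.55 and 25.2 CPM in the GFP-negative one. Replicate 2 was low among the GFP-negative libraries yet above the GFP-positive ones (log2 fold change -2.78, SE 0.43, edgeR adjusted p = 9.09e-04). Rhod, Rras and Rnd3, small GTPases that bind plexins or are acted on by them, had log2 fold changes of -1.96, -1.62 and -1.29. The summed astrocyte and neural stem cell markers, and the ependymal sum that was mostly Foxj1, differed in the same direction as these genes, as given above. The part of these cell types in the differences was not tested.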

How the data were processed

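Bulk RNA of 6 libraries, 3 per sorted fraction, was prepared with the SMART-Seq Stranded kit, per the labels' protocols. Among the tools in the submitters' processing notes are TopHat2 2.1.1 and featureCounts 2.0.0, with mm39 as build. Annotation, strand setting and duplicate handling: not given in the sources used here. The authors deposited raw read counts per gene without normalization. From these counts, edgeR 4.0.16 (R 4.3.3) was run on the whole table with filterByExpr (14554 genes left), TMM scaling and a quasi-likelihood test with Benjamini-Hochberg adjustment at 0.05. Standard errors come from the log2 fold change and the F statistic. CPM uses TMM-scaled library sizes, and depth covers counting error only. Exon lengths are unions of GENCODE M21 basic exons (GRCm38), matched by symbol for 31 of 31 genes, and serve only as lengths.

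All genes matching the symbol rule are named. From each pathway list the 4 largest positive and negative called genes are named. Members and lists were chosen with earlier results of these data known, and the neural stem cell markers were added after the files were analysed. Libraries with the same title number deviated together (correlation over genes 0.271, 0.433 and 0.233, each over 0.1). The numbers were taken as pairs only in the replicate block and in the ratios within numbers. Libraries of unlike number gave -0.370 to 0.177. GFP-positive replicate 3 with GFP-negative replicate 1, at 0.177, thus also passed 0.1. The reported values come from the model without the block. No library pair within a group matched within sampling noise (chi-square over its degrees of freedom, 9.83 to 34.2). The edgeR script was tested on simulated data. Alternatives were other scalings and filters, the replicate block, DESeq2 1.42.0, limma 3.58.1 voom, and leaving out libraries or numbers.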

Additional observations from a re-analysis of the deposited data

How the results depend on the processing

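Of 506 results of the 30 tested members under 17 alternatives, 487 kept their direction and side of the threshold, 7 lost and 6 gained a call, and 6 turned direction. The turns were in genes not called: Plxnb1 was at 0.02 without GFP-negative replicate 2, 0.05 without GFP-negative replicate 3, 0.03 without GFP-positive replicate 2, 0.05 without replicate 2 and 0.03 without replicate 3 (range -0.11 to 0.053), and Sema3f at 0.058 without GFP-positive replicate 1 (range -0.91 to 0.058). The lost calls were of Nrp1 and Plxna4 and the gained ones of Nrp2 and Sema3e, with values beside each gene. Leaving out a library or number, the count of lower receptors ran from 2 (without GFP-positive replicate 1 or 3) to 4, of higher receptors from 5 to 6, of higher ligands from 10 to 11, and of all higher genes from 2450 (without replicate 3) to 4169. Lower ligands stayed at 6 under all 17. The replicate block changed the call of 1 of 30 members, Nrp2 (adjusted p = 0.00334). Of 255 results of named pathway genes, 254 kept direction and call. Sema3b, Sema3e, Sema3f and Sema4f were not tested where 3 libraries needed a CPM of 1. Depth limits what can be said of Sema3b, Sema3e, Sema3f and Sema3g, with few counts per library.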

Other observations

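Values outside the naming rule, singled out after they were seen: Cdk5r1, an activator of the kinase Cdk5 that phosphorylates collapsin response mediator proteins, measured 80.5 ± 6.72 CPM in the GFP-positive fraction against 32.6 ± 9.44 CPM (SD, n = 3), with a log2 fold change of 1.30 (edgeR adjusted p = 4.71e-04). The Mical enzymes divided, with Mical1 at a log2 fold change of -1.29 and Mical3 at 0.71, both called. Fyn, a kinase of plexin signalling and of the oligodendrocyte lineage, was at 768 ± 40.0 against 786 ± 48.1 CPM (SD, n = 3) and not called (95% interval -0.19 to 0.12). Trem2 and Tyrobp, receptor proteins of microglia linked to plexin signalling, had 0 counts in each of the 6 libraries.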
